A study of Mus musculus with 10 samples.

Results

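Integrins are the adhesion receptors with which T cells hold on to vessel walls, epithelium and other cells, and the 35 genes described here encode integrin chains and the proteins that switch integrins on. They were chosen by gene symbol from the deposited count table, as 14 integrin alpha chains, 7 integrin beta chains, 6 adhesion receptors and ligands and 8 inside-out activators, out of 27179 genes in the table. A filter on low counts left 34 of the 35 among 13214 genes tested. The gene left out is Itgb4, the beta chain of epithelial hemidesmosomes, with between 0 and 5 reads in each library.

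The RNA came from regulatory T cells (Tregs), the Foxp3-expressing CD4 T cells that hold immune responses in check, sorted from C57BL/6 mice as CD4+ TCRb+ cells that carry the YFP of the Foxp3 allele. Maf-KO mice have floxed Maf alleles and a Cre-YFP driven from Foxp3 (Maffl/fl x Foxp3Cre-YFP), so that Maf, the gene of the transcription factor c-Maf, is removed in Foxp3-expressing cells. The WT mice carry the same Foxp3Cre-YFP without floxed Maf, so cells of both genotypes express Cre and YFP. Gut Tregs were pooled from colon plus small intestine, so that neither segment can be looked at alone. The title of the series names Treg control of TH17 cells and IgA in the intestine that depends on c-Maf. There were 2 Maf-KO gut, 2 WT gut, 3 Maf-KO spleen and 3 WT spleen libraries. The labels number the replicates and do not say that each is a separate mouse, so p-values measure only the spread between these samples.

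An integrin is a pair of 1 alpha and 1 beta chain, and the pair decides what the cell can bind. LFA-1 (alpha-L beta-2) binds ICAMs, alpha-4 beta-7 binds MAdCAM-1 on gut venules, alpha-4 beta-1 binds VCAM-1, alpha-E beta-7 (CD103) binds E-cadherin on epithelium, and alpha-V beta-8 releases active TGF-beta from its latent form. On a resting T cell integrins are bent and bind poorly. Chemokine or antigen receptor signals load the small GTPase Rap1 with GTP, and RIAM, talin and kindlin-3 then act on the beta chain tail from inside the cell, a step called inside-out activation.

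Levels are given as CPM, the reads of a gene relative to the TMM-scaled total of its library. Where genes are compared with each other they are given as the deposited FPKM, which divides by gene length. The TMM factors were not applied to FPKM, so a difference between gut and spleen in FPKM can depart from that in CPM. Itgb7 in Maf-KO, for example, had means of 1525 CPM in gut and 1309 CPM in spleen, against 530 and 539 FPKM. Library totals were 8567035 to 13983965 reads in genes, and the 35 genes took 0.840 to 1.15% of them. Maf itself had 7 and 3 reads in the Maf-KO gut libraries against 859 and 918 in WT gut, and 2, 10 and 2 reads in Maf-KO spleen against 337, 312 and 484 in WT spleen. Foxp3 had 211 and 174 CPM in Maf-KO gut and 156 and 206 CPM in WT gut, against 121, 114 and 123 CPM in Maf-KO spleen and 117, 126 and 134 CPM in WT spleen. Maf was thus near 0 in every Maf-KO library, and Foxp3 was read in all 10. All 8 Treg markers of a fixed list had reads in all groups, with sums of 9956 to 10161 CPM in Maf-KO gut, 8934 to 9974 in WT gut, 4151 to 4839 in Maf-KO spleen and 4174 to 4794 in WT spleen. In such bulk libraries fewer cells of a type and less RNA per cell cannot be told apart.

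The Tregs of both tissues used few of the chains at high level, and the leading alpha chain differed between gut and spleen. Per gene length, Itgae, the alpha chain of CD103, led in gut with a mean of 447 FPKM in Maf-KO and 242 FPKM in WT, and stood at 76.1 FPKM in Maf-KO spleen and 38.3 FPKM in WT spleen. In spleen the leading alpha chain was Itgal, the alpha chain of LFA-1, with 227 FPKM in Maf-KO and 214 FPKM in WT, while gut had 138 FPKM in Maf-KO and 116 FPKM in WT. Of the summed FPKM of the 14 alpha chains, Itgae made up 65.9% in Maf-KO gut and 53.5% in WT gut, against 17.2% in Maf-KO spleen and 10.03% in WT spleen. Itgal made up 20.3% and 25.6% of it in Maf-KO and WT gut, against 52.2% and 56.7% in Maf-KO and WT spleen. The ratio of Itgae to Itgal FPKM was 3.33 and 3.17 in the Maf-KO gut libraries and 2.04 and 2.14 in WT gut, and lay between 0.245 and 0.445 in Maf-KO spleen and between 0.140 and 0.211 in WT spleen. In each of the 4 gut libraries Itgae thus exceeded Itgal, and in each of the 6 spleen libraries it was the other way round.

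Among the beta chains Itgb7, the partner of alpha-4 and alpha-E, was first in all 4 groups. It made up 61.2% of the summed FPKM of the 6 beta chains with deposited FPKM values in Maf-KO gut and 61.3% in WT gut, against 43.6% in Maf-KO spleen and 45.2% in WT spleen. Itgb1, the partner of most matrix-binding alpha chains, made up 3.87% in Maf-KO gut and 3.73% in WT gut, against 27.04% in Maf-KO spleen and 25.3% in WT spleen. Itgb2, the partner of the leukocyte alpha chains L, M, X and D, kept a share of 29.6%, 28.6%, 27.3% and 27.6% in Maf-KO gut, WT gut, Maf-KO spleen and WT spleen. The ratio of Itgb7 to Itgb1 FPKM was 18.0 and 14.1 in the Maf-KO gut libraries and 18.1 and 15.02 in WT gut, and lay between 1.45 and 1.71 in Maf-KO spleen and between 1.63 and 1.99 in WT spleen. No test was run on these shares.

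**Figure D1:**
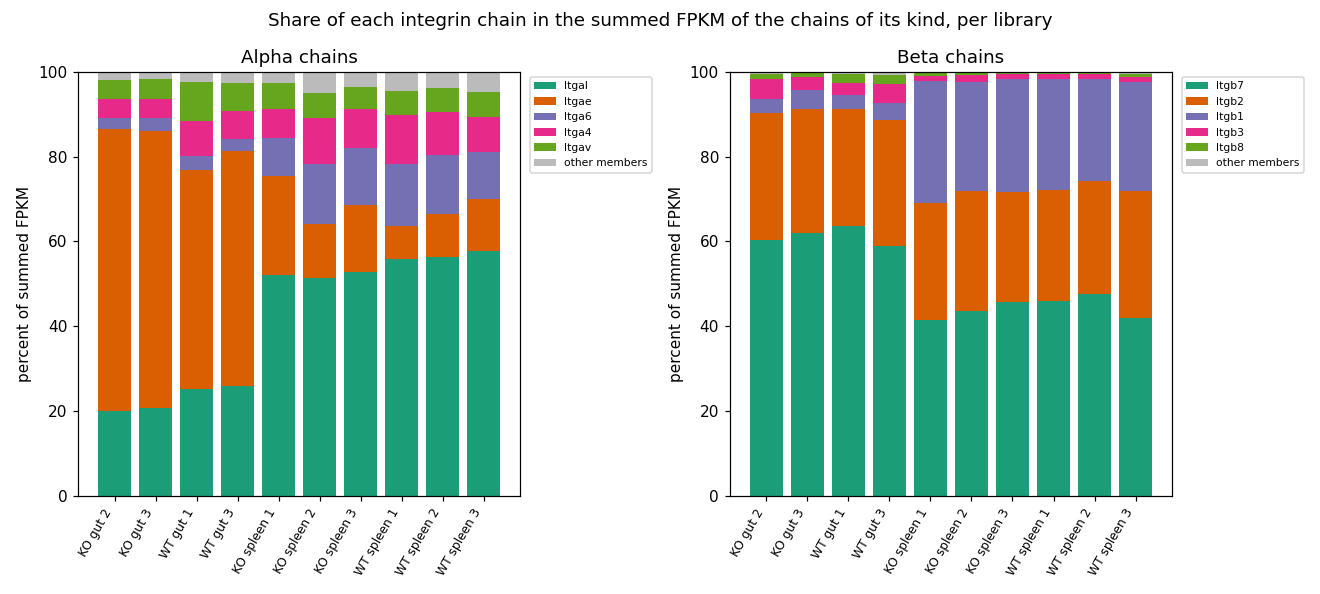
Each bar is 1 library (KO, Maf-KO; the number is the replicate), split by the share in percent of each alpha chain (left) or beta chain (right) in the summed FPKM of the chains of its kind. Itgae takes the largest part of the alpha chain bars in the 4 gut libraries and Itgal in the 6 spleen libraries, and the Itgb1 part is small in gut and about as large as Itgb2 in spleen.

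Gut and spleen Tregs were compared within each genotype. In Maf-KO, 17 of the 34 genes passed the test between tissues, 7 higher and 10 lower in gut, where 28.5% of all 13214 genes passed (14.4% higher and 14.1% lower). In WT, 17 of 34 passed as well, 8 higher and 9 lower in gut, where 28.0% of all genes passed (14.7% higher and 13.3% lower). The median log2 fold change of gut over spleen was -0.02 over the members in Maf-KO, where that of all genes tested was -0.02, and 0.02 over the members in WT, where that of all genes was -0.03. Passing means an adjusted p under 0.05 in edgeR's quasi-likelihood test with Benjamini-Hochberg adjustment over all genes tested.

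These tissue contrasts rest on few libraries and on the scaling. The Maf-KO count was 11 members when Maf-KO gut replicate 2 was left out and 10 when Maf-KO gut replicate 3 was. Library totals without TMM factors moved the median of all genes by -0.26 in Maf-KO and -0.27 in WT on the log2 scale, and the members then split into 4 higher and 13 lower in Maf-KO and 6 higher and 12 lower in WT. All changes below are relative to the TMM scaling. The title numbers of the labels pair 4 gut with 4 spleen libraries. The main tests leave this pairing out, and blocked values are given where a fit with that number as a block changes a call.

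Itgae rose in gut Tregs of both genotypes. Itgae (Entrez 16407, chromosome 11 from 73090505 to 73147449, GRCm38) had 2164 and 2229.6 CPM in Maf-KO gut and 998 and 1357 CPM in WT gut, against 459.6, 215 and 273 CPM in Maf-KO spleen and 105, 167 and 201 CPM in WT spleen. Every gut library was above every spleen library. Gut over spleen, the log2 fold change was 2.80 (SE 0.33, edgeR adjusted p = 0.000245) in Maf-KO and 2.90 (SE 0.33, edgeR adjusted p = 0.000193) in WT, a rise of 6.96-fold and 7.47-fold.

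Itga1, the collagen- and laminin-binding alpha chain of VLA-1, was expressed at a low level and was also higher in gut. It had 9.91 and 16.2 CPM in Maf-KO gut and 5.02 and 5.44 CPM in WT gut, against 2.38, 3.74 and 3.31 CPM in Maf-KO spleen and 1.69, 2.69 and 2.85 CPM in WT spleen, so gut and spleen did not overlap. The log2 fold change was 2.05 (SE 0.32, edgeR adjusted p = 0.00129) in Maf-KO and 1.11 (SE 0.34, edgeR adjusted p = 0.0327) in WT. The WT call for Itga1 was lost in 9 of 21 alternatives, among them the fits without WT gut replicate 1 (edgeR adjusted p = 0.103), WT gut replicate 3 (0.119), WT spleen replicate 1 (0.0865) and WT spleen replicate 2 (0.0569).

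Itgav, the alpha chain that pairs with beta-3, beta-5 and beta-8, had 231 and 248 CPM in Maf-KO gut and 273 and 248 CPM in WT gut, against 182, 156 and 138 CPM in Maf-KO spleen and 119, 143 and 149 CPM in WT spleen. It was higher in every gut library than in any spleen library, by 0.60 on the log2 scale in Maf-KO (edgeR adjusted p = 0.0103) and by 0.92 in WT (edgeR adjusted p = 0.00103). The Maf-KO call for Itgav was lost with library totals in place of TMM (edgeR adjusted p = 0.0739) and without Maf-KO gut replicate 3 (edgeR adjusted p = 0.0753).

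Of the alpha chains that were lower in gut, Itga6, which binds laminins, had the most reads after Itgal. It had 74.7 and 101 CPM in Maf-KO gut and 58.1 and 63.3 CPM in WT gut, against 163, 223 and 216 CPM in Maf-KO spleen and 182, 209 and 169.6 CPM in WT spleen, with no overlap. Itga6 fell by 1.19 on the log2 scale in Maf-KO gut (SE 0.18, edgeR adjusted p = 0.000965), and in WT gut by 1.62 (SE 0.18, edgeR adjusted p = 0.000179) against spleen. Itgal had 744 and 805 CPM in Maf-KO gut and 559 and 725 CPM in WT gut, against 1181, 1001 and 1049.6 CPM in Maf-KO spleen and 862, 1059 and 1090.3 CPM in WT spleen. Its gut and spleen libraries did not overlap either, and the change was smaller, a fall by 0.48 in Maf-KO gut (edgeR adjusted p = 0.0436) and by 0.65 in WT gut (edgeR adjusted p = 0.0119). The Maf-KO call for Itgal was lost without any 1 of the 5 Maf-KO libraries and without WT spleen replicate 2 (edgeR adjusted p = 0.0538 to 0.200 over these fits), and the WT call without WT gut replicate 1 (edgeR adjusted p = 0.108).

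A pair of alpha chains with few reads also passed as lower in gut. Itga7, a laminin-binding chain best known from muscle, had 0.783 and 4.47 CPM in Maf-KO gut and 1.26 and 0.709 CPM in WT gut, against 10.6, 8.70 and 13.5 CPM in Maf-KO spleen and 9.42, 10.6 and 7.87 CPM in WT spleen. Maf-KO gut replicate 3 stood above the other 3 gut libraries. Itga7 fell by 2.05 on the log2 scale in Maf-KO gut (edgeR adjusted p = 0.0209) and by 3.24 in WT gut (edgeR adjusted p = 0.00466). The Maf-KO value was -3.78 when gut replicate 3 was left out. It was -1.29 when gut replicate 2 was, and the call was then lost, as it was when spleen replicate 3 was left out (edgeR adjusted p = 0.0506 and 0.0529).

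Itgad, the alpha-D chain of beta-2 integrins known from splenic macrophages, had 3 and 8 reads in Maf-KO gut and 3 and 6 reads in WT gut, against 32, 90 and 40 reads in Maf-KO spleen and 72, 96 and 113 reads in WT spleen. It fell by 3.63 on the log2 scale in Maf-KO gut (edgeR adjusted p = 0.00235) and by 3.87 in WT gut (edgeR adjusted p = 0.00190). In a fit of the deposited log2 values with those under 0 raised to 0 neither call held (limma adjusted p = 0.424 in Maf-KO and 0.0779 in WT). Itgad was highest in Maf-KO spleen replicate 2 and WT spleen replicate 3. These were also the spleen libraries with the most S100a8, a neutrophil gene, which had 19.4, 122 and 16.9 CPM in Maf-KO spleen replicates 1 to 3 and 23.2, 14.7 and 321 CPM in WT spleen replicates 1 to 3, and at most 0.828 CPM in gut. The 6 neutrophil markers summed to 0.638 to 2.61 CPM in Maf-KO gut and 1.88 to 4.26 CPM in WT gut, against 40.8 to 299.9 CPM in Maf-KO spleen and 41.2 to 715 CPM in WT spleen. S100a8, S100a9 and Ngp were at 0 in Maf-KO gut and Ly6g at 0 in WT gut. With either of these libraries left out singly, Itgad kept its calls (edgeR adjusted p = 0.00356 without Maf-KO spleen replicate 2 and 0.00515 without WT spleen replicate 3). The neutrophil sums of the remaining spleen libraries were still above those of gut. The part of neutrophils in the Itgad values was not tested.

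The other myeloid alpha chains did not pass. Itgam (CD11b) had 8.61 and 5.75 CPM in Maf-KO gut and 3.14 and 9.70 CPM in WT gut, against 8.13, 18.9 and 7.11 CPM in Maf-KO spleen and 7.02, 7.31 and 18.1 CPM in WT spleen, highest in the same spleen libraries as S100a8. With title number as a fixed block Itgam passed as lower in gut (edgeR adjusted p = 0.0464 in Maf-KO and 0.0193 in WT) but not with that number as a random one. Itgax (CD11c) had 5.91 and 3.19 CPM in Maf-KO gut and 3.52 and 5.32 CPM in WT gut, against 2.38, 4.73 and 0.877 CPM in Maf-KO spleen and 5.78, 2.85 and 3.04 CPM in WT spleen, and the groups overlapped. The 12 markers of macrophages, monocytes and dendritic cells all had reads in every group and summed to 609 to 1339.7 CPM in Maf-KO gut and 614 to 1045 CPM in WT gut, against 469 to 1447 CPM in Maf-KO spleen and 725 to 1185 CPM in WT spleen. The part of these cells in the values of Itgad, Itgam and Itgax was not tested.

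Itga4, the alpha chain of the gut-homing pair alpha-4 beta-7, did not pass between tissues. It had 313 and 323 CPM in Maf-KO gut and 341 and 349.8 CPM in WT gut, against 300.2, 393 and 343 CPM in Maf-KO spleen and 337, 357 and 292 CPM in WT spleen. The log2 fold change of gut over spleen was -0.12 in Maf-KO (95% interval -0.42 to 0.18) and 0.07 in WT (95% interval -0.22 to 0.37), and with library totals in place of TMM Itga4 passed as lower in Maf-KO gut (edgeR adjusted p = 0.0482).

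The remaining alpha chains had low levels and no call. Itga3, a laminin receptor chain, had 9.22 and 7.90 CPM in Maf-KO gut and 8.54 and 10.5 CPM in WT gut, against 7.59, 5.39 and 3.70 CPM in Maf-KO spleen and 4.44, 4.85 and 6.92 CPM in WT spleen. Its log2 fold change was 0.62 in Maf-KO (edgeR adjusted p = 0.178) and 0.82 in WT (edgeR adjusted p = 0.0835), and Itga3 passed as higher in gut with title number as a block (edgeR adjusted p = 0.0188 in Maf-KO and 0.0408 in WT). Itga2, the collagen-binding chain of VLA-2, had 13.6 and 15.2 CPM in Maf-KO gut and 12.2 and 13.01 CPM in WT gut, against 4.99, 11.2 and 12.3 CPM in Maf-KO spleen and 7.29, 11.01 and 10.5 CPM in WT spleen. Every gut library of Itga2 and of Itga3 was above every spleen library of its genotype, by less than the test asks for. Itga9, whose ligands include tenascin, had 4.35 and 0.878 CPM in Maf-KO gut and 1.005 and 5.44 CPM in WT gut, against 4.55, 8.15 and 3.80 CPM in Maf-KO spleen and 4.36, 6.003 and 5.50 CPM in WT spleen, and the groups overlapped. With title number as a random effect Itga9 passed as lower in Maf-KO gut (limma-voom adjusted p = 0.0358).

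Itgb1 had the smallest p among the members in both genotypes. Itgb1 (Entrez 16412, chromosome 8 from 128685654 to 128733579, GRCm38) had 123 and 181 CPM in Maf-KO gut and 125 and 141 CPM in WT gut, against 1366, 1093 and 1361 CPM in Maf-KO spleen and 1176, 1244 and 1154 CPM in WT spleen. The gut libraries lay far below all spleen libraries. Itgb1 fell by 3.06 on the log2 scale in Maf-KO gut (SE 0.19, edgeR adjusted p = 6.14e-06), and in WT gut by 3.16 (SE 0.19, edgeR adjusted p = 4.87e-06), that is 8.36-fold and 8.96-fold lower than in spleen. In contrast Itgb7 had 1417 and 1633 CPM in Maf-KO gut and 1439 and 1352 CPM in WT gut, against 1258, 1183 and 1486 CPM in Maf-KO spleen and 1313, 1577 and 1201 CPM in WT spleen, and its groups overlapped. The log2 fold change of Itgb7 was 0.22 in Maf-KO (95% interval -0.12 to 0.56) and 0.03 in WT (95% interval -0.31 to 0.37).

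Itgb8, the chain with which alpha-V frees TGF-beta, had 28.6 and 28.8 CPM in Maf-KO gut and 56.9 and 58.3 CPM in WT gut, against 25.7, 15.4 and 12.3 CPM in Maf-KO spleen and 13.5, 13.3 and 21.2 CPM in WT spleen. Every gut library was above every spleen library of its genotype, with the wider gap in WT. The ratio of Itgav to Itgb8 FPKM was 3.55 and 3.78 in the Maf-KO gut libraries and 2.10 and 1.87 in WT gut, against 3.11 to 4.93 in Maf-KO spleen and 3.08 to 4.72 in WT spleen. Itgb8 rose by 1.85 on the log2 scale in WT gut (SE 0.29, edgeR adjusted p = 0.00129), and its value of 0.69 in Maf-KO did not pass (SE 0.29, edgeR adjusted p = 0.106). It passed in Maf-KO with title number as a fixed block (log2 fold change 1.06, edgeR adjusted p = 0.00236), as a random effect (limma-voom adjusted p = 0.00474) and without Maf-KO spleen replicate 1, the spleen library with the most Itgb8 (log2 fold change 1.05, edgeR adjusted p = 0.0136).

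Itgb3, another partner of alpha-V, had 242 and 183 CPM in Maf-KO gut and 136 and 226 CPM in WT gut, against 73.1, 98.97 and 85.5 CPM in Maf-KO spleen and 65.9, 80.5 and 85.4 CPM in WT spleen. It rose without overlap by 1.31 on the log2 scale in Maf-KO gut (edgeR adjusted p = 0.00190) and by 1.23 in WT gut (edgeR adjusted p = 0.00272). Platelets carry beta-3 with alpha-IIb, the product of Itga2b, which had 0.435 and 0.0798 CPM in Maf-KO gut and 0.377 and 0 CPM in WT gut, against 2.38, 2.64 and 1.27 CPM in Maf-KO spleen and 6.31, 2.39 and 8.25 CPM in WT spleen. Itga2b is itself among the 7 platelet markers. These summed to 1.52 to 3.83 CPM in Maf-KO gut and 1.63 to 2.96 CPM in WT gut, against 4.48 to 12.0002 CPM in Maf-KO spleen and 8.005 to 25.8 CPM in WT spleen. Treml1 and Gp6 were at 0 in both gut groups and Ppbp at 0 in Maf-KO gut. The part of platelets in the Itgb3 values was not tested.

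Itgb2 had 750.3 and 825 CPM in Maf-KO gut and 666 and 726 CPM in WT gut, against 892, 818 and 908 CPM in Maf-KO spleen and 799.7, 941 and 916 CPM in WT spleen. In WT the gut libraries lay below the spleen libraries and the log2 fold change of -0.35 missed the threshold (edgeR adjusted p = 0.0526). It passed with title number as a block (edgeR adjusted p = 0.0428), with DESeq2 (adjusted p = 0.0205) and without WT spleen replicate 1 (edgeR adjusted p = 0.0359). Itgb5, a further partner of alpha-V, had 16.001 and 6.46 CPM in Maf-KO gut and 11.1 and 17.6 CPM in WT gut, against 11.7, 9.69 and 4.97 CPM in Maf-KO spleen and 5.51, 6.23 and 15.8 CPM in WT spleen, and the groups overlapped.

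**Figure D2:**
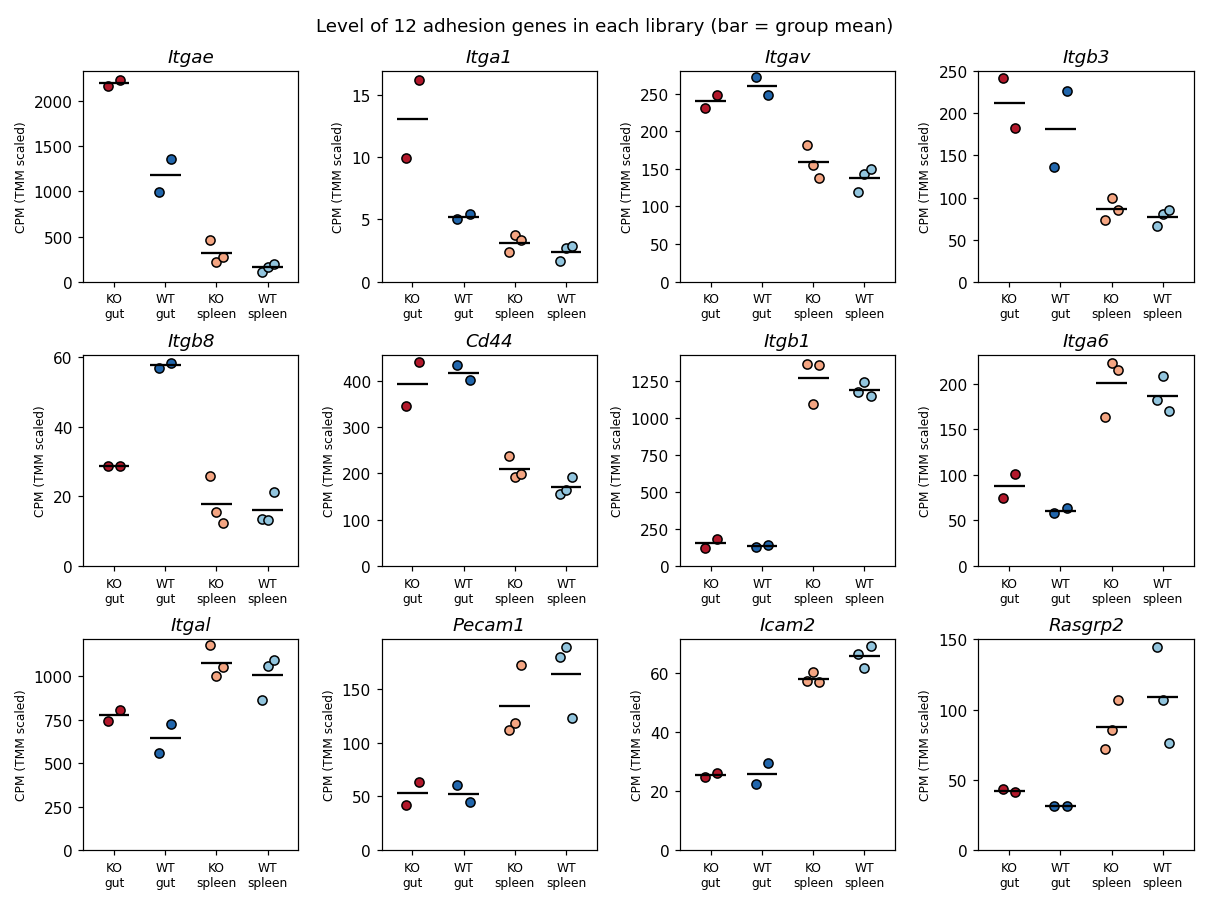
Level of 12 of the genes in each library, as CPM after TMM scaling on a linear axis from 0 (KO, Maf-KO), with 1 point per library and a bar at the group mean. Itgae, Itga1, Itgav, Itgb3, Itgb8 and Cd44 are higher and Itgb1, Itga6, Itgal, Pecam1, Icam2 and Rasgrp2 lower in gut than in spleen of the same genotype, and the Itgb8 points of Maf-KO gut lie between those of WT gut and those of spleen.

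Of the adhesion receptors, Cd44, the hyaluronan receptor and a marker of antigen-experienced T cells, had 345 and 442 CPM in Maf-KO gut and 434 and 401 CPM in WT gut, against 237, 192 and 199.6 CPM in Maf-KO spleen and 155, 164 and 192 CPM in WT spleen. It rose without overlap by 0.91 on the log2 scale in Maf-KO gut (SE 0.15, edgeR adjusted p = 0.00147), and in WT gut by 1.30 (SE 0.15, edgeR adjusted p = 0.000179). Cd226, which encodes the co-stimulatory receptor DNAM-1, had 172 and 159.8 CPM in Maf-KO gut and 185 and 166 CPM in WT gut, against 63.3, 114 and 119 CPM in Maf-KO spleen and 98.8, 108 and 96.6 CPM in WT spleen. It rose in gut by 0.75 in Maf-KO (edgeR adjusted p = 0.0284) and by 0.79 in WT (edgeR adjusted p = 0.0222), with groups that did not overlap within a genotype. Each of these calls was lost in 7 of 21 alternatives, among them library totals in place of TMM (edgeR adjusted p = 0.0998 in Maf-KO and 0.0778 in WT). The Maf-KO call was also lost without gut replicate 2 or 3 of that genotype (edgeR adjusted p = 0.127 and 0.0875), and the WT call without either WT gut library or spleen replicate 1 or 3 (edgeR adjusted p = 0.0555 to 0.126).

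Pecam1 (CD31), an adhesion and inhibitory receptor of endothelium and leukocytes, had 42.2 and 63.4 CPM in Maf-KO gut and 60.5 and 44.8 CPM in WT gut, against 112, 118 and 173 CPM in Maf-KO spleen and 179.7, 189 and 123 CPM in WT spleen. It fell without overlap by 1.34 on the log2 scale in Maf-KO gut (edgeR adjusted p = 0.00488) and by 1.64 in WT gut (edgeR adjusted p = 0.00189), and the Maf-KO call was lost without Maf-KO gut replicate 2 (edgeR adjusted p = 0.0505). Icam2, a ligand of LFA-1, had 24.8 and 25.9 CPM in Maf-KO gut and 22.2 and 29.3 CPM in WT gut, against 57.02, 60.1 and 56.9 CPM in Maf-KO spleen and 66.3, 61.5 and 68.96 CPM in WT spleen. Icam2 fell by 1.19 in Maf-KO gut (SE 0.14, edgeR adjusted p = 0.000199), and in WT gut by 1.35 (SE 0.14, edgeR adjusted p = 9.66e-05), and the gut values were under those of all spleen libraries. Endothelium expresses both genes as well. The 8 markers of stroma and endothelium summed to 2.17 to 12.05 CPM in Maf-KO gut and 4.65 to 15.5 CPM in WT gut, against 3.41 to 3.74 CPM in Maf-KO spleen and 3.31 to 6.67 CPM in WT spleen, so that the ranges of gut and spleen overlapped. Tek and Pdgfra were at 0 in Maf-KO spleen and Pdgfra in WT spleen.

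Cd2, which binds CD48 in the mouse, and Selplg, which encodes the P-selectin ligand PSGL-1, did not pass. Cd2 had 828 and 1038 CPM in Maf-KO gut and 849 and 724 CPM in WT gut, against 958, 681 and 811 CPM in Maf-KO spleen and 769.97, 740.4 and 799.97 CPM in WT spleen. Selplg had 414 and 474 CPM in Maf-KO gut and 377 and 364 CPM in WT gut, against 296, 360.2 and 403 CPM in Maf-KO spleen and 321, 384 and 325 CPM in WT spleen. In Maf-KO, Cd2 passed as higher in gut with title number as a fixed block (edgeR adjusted p = 0.0484) and Selplg with title number as a random effect (limma-voom adjusted p = 0.0496), each in 1 of the 2 blocked fits.

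**Figure D3:**
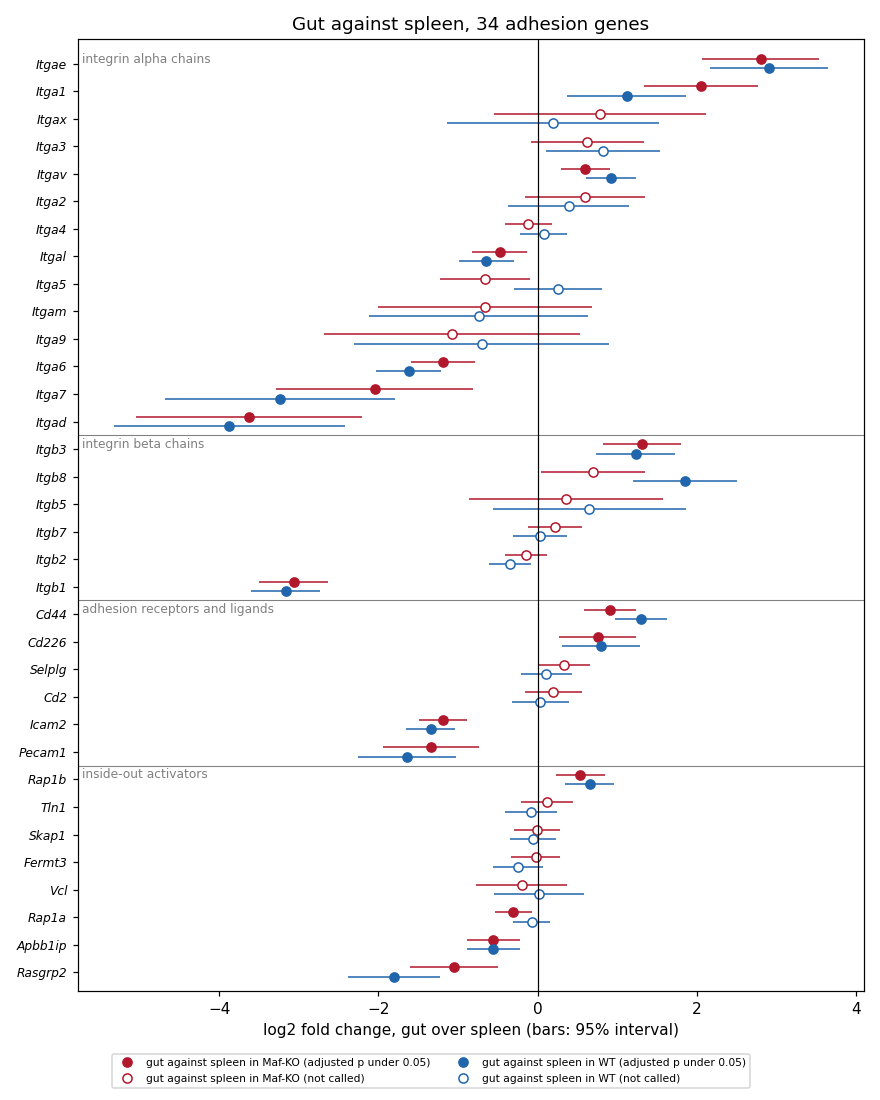
Log2 fold change of gut over spleen with its 95% interval for the 34 tested genes, by role, in Maf-KO (red) and WT (blue); filled points passed at an edgeR adjusted p under 0.05. Itgb1 and Itgae stand far from 0 with short intervals, and Rasgrp2 lies farthest from 0 among the inside-out activators.

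Of the 8 inside-out activators, 1 passed as higher and 3 as lower in Maf-KO gut, and 1 as higher and 2 as lower in WT gut. The shares of all 13214 genes that passed were 28.5% in Maf-KO and 28.0% in WT, and the list was not tested against them. Rasgrp2 encodes CalDAG-GEFI, the exchange factor that loads Rap1 with GTP in answer to calcium and diacylglycerol. It had 43.7 and 41.1 CPM in Maf-KO gut and 31.1 and 31.5 CPM in WT gut, against 71.8, 85.3 and 107 CPM in Maf-KO spleen and 145, 107 and 76.3 CPM in WT spleen. Rasgrp2 fell without overlap by 1.05 on the log2 scale in Maf-KO gut (SE 0.25, edgeR adjusted p = 0.0105), and in WT gut by 1.80 (SE 0.26, edgeR adjusted p = 0.000778). The Maf-KO call was lost without gut replicate 2 or 3 of Maf-KO (edgeR adjusted p = 0.0542 and 0.0788).

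Apbb1ip encodes RIAM, which carries Rap1-GTP to talin. It had 105 and 86.2 CPM in Maf-KO gut and 81.1 and 109.97 CPM in WT gut, against 130.4, 148 and 145 CPM in Maf-KO spleen and 131, 153 and 138 CPM in WT spleen, and gut was below spleen throughout. Apbb1ip fell by 0.56 in Maf-KO gut (edgeR adjusted p = 0.0193) and by 0.56 in WT gut (edgeR adjusted p = 0.0198). In Maf-KO the call was lost when gut replicate 3 or spleen replicate 2 was left out (edgeR adjusted p = 0.172 and 0.0554). In WT it was lost when gut replicate 1 or spleen replicate 2 was (edgeR adjusted p = 0.166 and 0.0591).

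Of the genes of the Rap1 GTPases themselves, Rap1b rose in gut in both genotypes and Rap1a did not. Rap1b had 365 and 448 CPM in Maf-KO gut and 485 and 390.3 CPM in WT gut, against 279, 269 and 294 CPM in Maf-KO spleen and 264, 310.2 and 261 CPM in WT spleen. Rap1b rose without overlap by 0.53 on the log2 scale in Maf-KO gut (edgeR adjusted p = 0.0171) and by 0.65 in WT gut (edgeR adjusted p = 0.00625). Rap1a had 147 and 154 CPM in Maf-KO gut and 160.4 and 159.6 CPM in WT gut, against 194, 182 and 184 CPM in Maf-KO spleen and 154, 170.1 and 183 CPM in WT spleen. Its log2 fold change was -0.31 in Maf-KO, barely past the threshold (edgeR adjusted p = 0.0477), and -0.08 in WT (edgeR adjusted p = 0.605). The ratio of Rap1b to Rap1a FPKM, which no library scaling can move, was 1.66 and 1.94 in the Maf-KO gut libraries and 2.02 and 1.63 in WT gut, against 0.963 to 1.07 in Maf-KO spleen and 0.951 to 1.22 in WT spleen. The Rap1a call in Maf-KO was lost in 12 of 21 alternatives, among them a fixed block on title number (edgeR adjusted p = 0.0520) and 8 of the 10 fits that leave out 1 library. The Rap1b call in Maf-KO was lost when gut replicate 3 was left out (edgeR adjusted p = 0.169), when spleen replicate 2 was (edgeR adjusted p = 0.0554) and with library totals in place of TMM (edgeR adjusted p = 0.149). The WT call was lost without WT gut replicate 1 (edgeR adjusted p = 0.0695).

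The core of the switch itself did not pass in either genotype. Tln1 encodes talin-1, which binds the beta chain tail, and had 1342 and 1531 CPM in Maf-KO gut and 1047 and 1291 CPM in WT gut, against 1331, 1258 and 1394 CPM in Maf-KO spleen and 1112, 1421 and 1187 CPM in WT spleen. Fermt3 encodes kindlin-3, its partner in blood cells, and had 374 and 472 CPM in Maf-KO gut and 378 and 360.4 CPM in WT gut, against 427, 405 and 457 CPM in Maf-KO spleen and 416, 499 and 401 CPM in WT spleen. Skap1 encodes an adaptor that brings RIAM and Rap1 to the membrane, and had 345 and 421 CPM in Maf-KO gut and 374 and 337 CPM in WT gut, against 367, 363 and 425 CPM in Maf-KO spleen and 360.4, 401 and 347 CPM in WT spleen. The 95% intervals of gut over spleen for these 3 genes lay between -0.56 (Fermt3 in WT) and 0.44 (Tln1 in Maf-KO) on the log2 scale. With library totals in place of TMM Fermt3 passed as lower in WT gut (edgeR adjusted p = 0.0147). Vcl, the gene of vinculin, which ties talin to actin, had 9.04 and 12.7 CPM in Maf-KO gut and 12.7 and 10.3 CPM in WT gut, against 11.2, 15.4 and 11.01 CPM in Maf-KO spleen and 13.9, 9.70 and 10.5 CPM in WT spleen.

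The markers of some other cells moved with tissue as well. The 7 markers of CD8 T, NK and innate lymphoid cells had reads in all groups, and they include Gzmb, which Tregs can also express. They summed to 3233 to 3606 CPM in Maf-KO gut and 1493 to 2278 CPM in WT gut, against 70.2 to 129.8 CPM in Maf-KO spleen and 71.8 to 112 CPM in WT spleen. Gzmb made up most of the gut sums, and Cd8a had 11.1 and 7.50 CPM in Maf-KO gut and 7.28 and 6.03 CPM in WT gut, against 9.54, 22.6 and 8.57 CPM in Maf-KO spleen and 12.6, 12.2 and 17.1 CPM in WT spleen. The 6 B cell markers summed to 56.5 to 84.4 CPM in Maf-KO gut and 59.3 to 73.3 CPM in WT gut, against 153 to 416 CPM in Maf-KO spleen and 209 to 318 CPM in WT spleen, with none at 0. The 8 epithelial markers summed to 145 to 156 CPM in Maf-KO gut and 137 to 173 CPM in WT gut, against 31.9 to 67.9 CPM in Maf-KO spleen and 36.5 to 59.7 CPM in WT spleen, most of it Epcam. Of these markers Muc2 was at 0 in WT gut, Krt8, Krt20 and Fabp2 in both spleen groups, and Krt19 and Muc2 in Maf-KO spleen. Their part in the tissue differences was not tested.

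The promoters of 3 genes described above are shown: Itgb1, with the smallest p between tissues, Itgb8, whose gut level was lower in both Maf-KO than in both WT libraries, and Rasgrp2, which moved most among the activators. The RefSeq promoter table (GRCm38.p6) held 22 entries for 20 of the 35 genes, each 250 bases before to 50 bases after an annotated start. They are written 5′ to 3′ on the gene's own strand, with capitals for matches on either strand to TGCTGA, the core of the Maf recognition element, to GGGCGG, the GC box, to TGANTCA, the AP-1 motif, or to TGTGGT, the RUNX core. The stretches shown hold only the first and second of these, and that of Itgb8 holds none. Of the 2 Rasgrp2 entries the one with a TGCTGA match was picked after the matches were seen, and the other holds no TGCTGA and 6 GGGCGG matches.
Itgb1 (chr8:128685404-128685703, + strand): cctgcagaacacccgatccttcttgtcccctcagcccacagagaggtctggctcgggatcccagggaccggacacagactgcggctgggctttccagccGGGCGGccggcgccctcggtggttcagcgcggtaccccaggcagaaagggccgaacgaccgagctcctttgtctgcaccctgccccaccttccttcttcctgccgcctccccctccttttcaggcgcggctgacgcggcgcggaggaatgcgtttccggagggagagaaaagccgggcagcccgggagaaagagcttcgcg
Itgb8 (chr12:119238227-119238526, - strand): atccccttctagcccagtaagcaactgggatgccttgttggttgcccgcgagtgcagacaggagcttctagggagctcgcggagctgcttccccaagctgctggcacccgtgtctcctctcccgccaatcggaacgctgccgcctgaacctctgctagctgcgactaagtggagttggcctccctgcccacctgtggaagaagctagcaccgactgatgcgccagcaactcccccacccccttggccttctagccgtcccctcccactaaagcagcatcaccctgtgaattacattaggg
Rasgrp2, the second annotated start (chr19:6401455-6401754, + strand): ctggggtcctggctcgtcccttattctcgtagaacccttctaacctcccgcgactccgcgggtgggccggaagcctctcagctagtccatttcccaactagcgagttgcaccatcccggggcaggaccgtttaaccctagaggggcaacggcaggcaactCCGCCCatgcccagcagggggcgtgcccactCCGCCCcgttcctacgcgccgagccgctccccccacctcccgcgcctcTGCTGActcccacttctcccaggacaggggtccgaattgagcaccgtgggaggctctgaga
TGCTGA occurred in 2 of the 22 entries, those of Itga9 and this start of Rasgrp2, where it begins 11 bases before the annotated start, and in 19.5% of all 32851 promoter entries. GGGCGG, searched on both strands, occurred in 14 of the 22 entries and in 35.7% of all. TGANTCA occurred in 3 of the 22 (Itga3, Itga9 and Itgax) and in 7.81% of all, and TGTGGT in 4 of the 22 and in 16.8% of all. The motifs do not overlap one another in the stretches shown. A match describes these letters and says nothing of binding.

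Maf-KO and WT Tregs were next compared within each tissue, which is the question of the series. No member passed in gut, where 0.151% of all genes did (20 of 13214), nor in spleen, where 0.0151% did (2 of 13214). At an unadjusted p under 0.05 edgeR gave 5 of 34 members in gut, where it gave 1076 of all 13214 genes, and 2 in spleen, where it gave 376 of all genes. DESeq2 gave 6 and 2 and limma-voom 5 and 2, and neither called a member. The median log2 fold change of Maf-KO over WT was 0.07 over the members in gut, where that of all genes was -0.0035, and 0.06 in spleen, where that of all genes was -0.0064.

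Itgae was the member with the same direction at an unadjusted p under 0.05 in both tissues. The Maf-KO libraries, listed above, were higher than all WT libraries of their tissue. The log2 fold change was 0.90 in gut (95% interval 0.10 to 1.70, edgeR adjusted p = 0.578), and 1.003 in spleen (95% interval 0.34 to 1.66, edgeR adjusted p = 0.999). Among the 5 members under that p in gut Itga1 had the largest log2 value, 1.32 (95% interval 0.52 to 2.11, edgeR adjusted p = 0.322), and 0.38 in spleen (95% interval -0.31 to 1.08). Both Maf-KO gut libraries of Itga1 exceeded both WT gut libraries, and the spleen groups overlapped. Itga6 had 0.53 in gut (edgeR adjusted p = 0.504), again without overlap. Over the alternatives the adjusted p of Itga1 in gut ranged from 0.140 to 0.929.

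Some marker sums also differed between the genotypes in gut. The CD8 T, NK and innate lymphoid list summed to 3233 to 3606 CPM in Maf-KO gut, against 1493 to 2278 CPM in WT gut, with all 7 markers read in both. Gzmb, which Tregs can also express, made up most of these sums. It had 3134 and 3484 CPM in Maf-KO gut against 2154 and 1401 CPM in WT gut. Cd8b1 had 11.5 and 15.8 CPM in Maf-KO gut against 8.16 and 12.3 CPM in WT gut, so its groups overlapped. The Cd8a values listed above were low and slightly higher in Maf-KO gut than in WT gut. The 7 pancreatic acinar markers summed to 1.30 to 2.23 CPM in Maf-KO gut, with 6 of the 7 at 0 (Pnlip, Cela2a, Ctrb1, Cpa1, Cel and Try4), against 22.3 to 122 CPM in WT gut with none at 0. Their part in the genotype differences was not tested.

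Itgb8 and Itga5 pointed the other way in gut. Itgb8 had 28.6 and 28.8 CPM in the Maf-KO gut libraries, against 56.9 and 58.3 CPM in WT gut, so that replicates lay close together and the groups apart. Its log2 fold change was -1.004 (95% interval -1.72 to -0.29, edgeR adjusted p = 0.445) in gut and 0.15 (95% interval -0.45 to 0.75) in spleen. Itga5, the fibronectin receptor chain, had 8.09 and 6.06 CPM in Maf-KO gut against 12.7 and 13.6 CPM in WT gut, and 8.56, 13.98 and 11.01 CPM in Maf-KO spleen against 11.999, 9.31 and 11.9 CPM in WT spleen. Its log2 fold change was -0.89 in gut (95% interval -1.51 to -0.28, edgeR adjusted p = 0.413) and 0.02 in spleen (95% interval -0.48 to 0.51). Between tissues Itga5 had -0.66 gut over spleen in Maf-KO (edgeR adjusted p = 0.0802) and 0.25 in WT (edgeR adjusted p = 0.491). It passed in Maf-KO with title number as a block (edgeR adjusted p = 0.0118) and without Maf-KO spleen replicate 1 (edgeR adjusted p = 0.0431).

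For the well-read members the intervals give the sizes of genotype effect that remain compatible with these libraries. Each interval is for 1 gene and is not adjusted for the number of genes. In gut the 95% interval of Maf-KO over WT was -0.24 to 0.50 for Itgb7, -0.44 to 0.21 for Itga4, -0.11 to 0.47 for Itgb2, -0.10 to 0.64 for Itgal and -0.22 to 0.61 for Itgb1, all on the log2 scale. In spleen it was -0.36 to 0.24 for Itgb7, -0.19 to 0.34 for Itga4, -0.26 to 0.21 for Itgb2, -0.20 to 0.41 for Itgal and -0.24 to 0.43 for Itgb1. Among the adhesion receptors Cd44 had 0.30 in spleen (edgeR adjusted p = 0.999) and -0.09 in gut. All 8 inside-out activators had an unadjusted p above 0.05 in both tissues, with the largest value for Rasgrp2, 0.44 in gut and -0.31 in spleen (edgeR adjusted p = 0.737 and 0.999). Genes with few reads, such as Itga7 (-0.12 to 2.97 in gut), Itga9 and Itgad, had intervals too wide to exclude large effects.

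**Figure D4:**
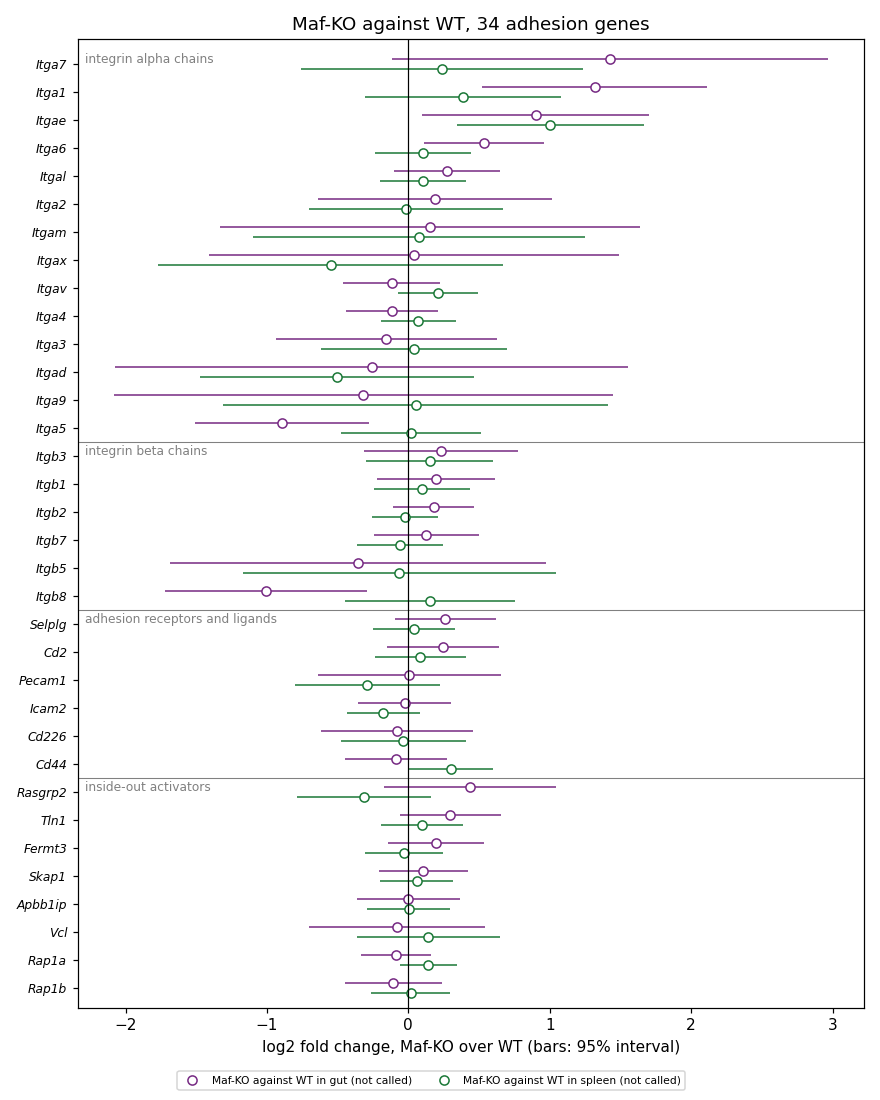
Log2 fold change of Maf-KO over WT with its 95% interval for the 34 tested genes, by role, in gut (purple) and spleen (green); no point is filled, since none passed. Itga1, Itgae and Itga6 lie to the right and Itga5 and Itgb8 to the left of 0 in gut with intervals that leave out 0, and Itgae and Cd44 to the right in spleen.

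Whether the genotype effect differed between tissues was tested as an interaction. No member and none of the 13214 genes passed (0%). At an unadjusted p under 0.05 edgeR gave 2 of 34 members and 422 of all genes. DESeq2 gave 3 members at that p and called 8 genes, none of them a member, and limma-voom gave 2 members and called none. Both members were Itgb8, with a difference of -1.16 on the log2 scale between the genotype effects in gut and spleen (95% interval -2.09 to -0.22, edgeR adjusted p = 0.9999), and Itga5, with -0.91 (95% interval -1.70 to -0.12, edgeR adjusted p = 0.9999). For Rasgrp2 it was 0.75 (95% interval -0.02 to 1.52). A call in WT and none in Maf-KO, as for Itgb8, is therefore not shown to be a difference between the genotypes.

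Beyond the members, 109 genes of the same pathway were listed by role, of which 108 symbols were in the table and 92 were tested. None passed between genotypes in edgeR or limma-voom, and 14 of the 92 in gut and 5 in spleen had an unadjusted p under 0.05 in edgeR, where 1076 and 376 of all 13214 genes did. DESeq2 called 1 of them in gut, Cd6, a receptor of T cells for ALCAM (log2 fold change of Maf-KO over WT 0.61, edgeR adjusted p = 0.283, DESeq2 adjusted p = 0.0151), and none in spleen. A limma-trend fit of the deposited log2 values with those under 0 raised to 0 called 1 in gut, Cdh1 (log2 fold change of Maf-KO over WT 1.98 and adjusted p = 0.425 in edgeR, limma adjusted p = 0.000330). Between tissues 36 passed in Maf-KO, 17 higher and 19 lower in gut, and 38 in WT, 18 higher and 20 lower. Of all genes tested 28.5% passed in Maf-KO and 28.0% in WT. The counts of each list below are to be read beside these shares, and no list was tested against them. Without Maf-KO gut replicate 2 the Maf-KO count was 23, and with library totals in place of TMM the calls split into 14 higher and 27 lower in Maf-KO and 12 higher and 30 lower in WT.

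Of 15 regulators of Rap1, 2 were higher and 4 lower in Maf-KO gut than in Maf-KO spleen, and 2 higher and 5 lower in WT gut than in WT spleen. Prkcq, the gene of protein kinase C theta of the T cell receptor pathway, had log2 fold changes of -1.24 in Maf-KO and -1.48 in WT (edgeR adjusted p = 8.08e-05 and 2.61e-05). Rasa3, which encodes a GTPase-activating protein for Rap1, had -2.20 in Maf-KO and -2.48 in WT (edgeR adjusted p = 0.000918 and 0.000506). Itpkb, the gene of an inositol trisphosphate kinase, had 0.84 and 0.68 in Maf-KO and WT (edgeR adjusted p = 0.00544 and 0.0156), and lost its calls without gut replicate 2 of Maf-KO (0.0585) and gut replicate 3 of WT (0.124). Rap1gap2, which encodes another GTPase-activating protein for Rap1, had -1.89 and -2.10 (edgeR adjusted p = 0.0254 and 0.0184), and lost its calls without gut replicate 2 or spleen replicate 3 of Maf-KO (0.111 and 0.0672) and without gut replicate 1 or 3 or spleen replicate 2 of WT (0.0557, 0.118 and 0.0543). Rapgef1, the gene of an exchange factor for Rap1, had -0.29 in Maf-KO (edgeR adjusted p = 0.277) and fell by 0.76 in WT gut (edgeR adjusted p = 0.0138, and 0.123 without gut replicate 1 of WT).

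Of 9 tested adaptors and tail binders, 1 rose and 1 fell in Maf-KO gut and 1 rose and 2 fell in WT gut. Dok1, which competes with talin for the tail, rose by 1.15 and 1.25 in Maf-KO and WT gut. Flna, the filamin A gene, fell by 1.20 and 1.43. Cyth1, whose product binds the beta-2 tail, had -0.38 in Maf-KO (edgeR adjusted p = 0.0826) and fell by 0.48 in WT gut (edgeR adjusted p = 0.0339). That call was lost without any 1 of the 5 WT libraries (edgeR adjusted p = 0.0514 to 0.202), and Cyth1 passed in Maf-KO with title number as a block (edgeR adjusted p = 0.00439). Of 16 tested genes of the adhesion scaffold, 3 rose and 3 fell in Maf-KO and 1 rose and 2 fell in WT, among them Actn1 (alpha-actinin-1), with -1.54 and -1.97, and Ptk2 (focal adhesion kinase), with -1.93 and -1.89. Ptk2b, the gene of the related kinase PYK2, had 0.69 and 0.61 (edgeR adjusted p = 0.00904 and 0.0154), and lost its calls without gut replicate 2 of Maf-KO (0.0631) and gut replicate 3 of WT (0.136). Actn4 (alpha-actinin-4) rose by 0.52 in Maf-KO gut (edgeR adjusted p = 0.00942, and 0.0763 without gut replicate 2 of Maf-KO). In WT it had 0.34 (edgeR adjusted p = 0.0581) and passed with title number as a block (edgeR adjusted p = 0.00894). With library totals in place of TMM, Itpkb and Ptk2b did not pass in WT, nor Actn4 in Maf-KO (edgeR adjusted p = 0.0697, 0.0837 and 0.0825).

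Of 11 tested integrin ligands, 3 rose and 1 fell in gut in each genotype. Icam1, the main ligand of LFA-1, rose by 1.22 in Maf-KO and 1.49 in WT (edgeR adjusted p = 0.000132 and 3.44e-05), unlike Icam2 above. Cdh1, which encodes E-cadherin, the ligand of CD103, rose by 3.39 in Maf-KO and 2.18 in WT (edgeR adjusted p = 0.00194 and 0.0234). It is an epithelial gene too. The epithelial marker sums above, which include Cdh1 itself and are mostly Epcam, were higher in gut. The WT call for Cdh1 was lost without gut replicate 1 or 3 of WT (edgeR adjusted p = 0.0735 and 0.0886) or spleen replicate 2 or 3 of WT (edgeR adjusted p = 0.0685 and 0.0612). Vcam1, the ligand of alpha-4 beta-1, fell by 2.32 and 2.54, and its Maf-KO call was lost without Maf-KO gut replicate 3 (edgeR adjusted p = 0.0627). Tgfb1, whose latent product is bound by alpha-V integrins, rose by 0.57 in Maf-KO gut and 0.46 in WT gut (edgeR adjusted p = 0.00373 and 0.0116), and the WT call was lost with library totals in place of TMM (0.187) and without gut replicate 3 of WT (0.0670). Of 12 integrin-associated membrane proteins, 1 rose and 1 fell in each genotype. Slc3a2, the gene of CD98 heavy chain, which binds beta chains, had 2.60 in Maf-KO and 2.49 in WT (edgeR adjusted p = 4.34e-07 and 5.91e-07). The gene of the tetraspanin CD9 had -1.51 in Maf-KO and -1.92 in WT (Cd9, edgeR adjusted p = 2.84e-05 and 7.98e-06). Of 17 other adhesion receptors and selectin ligand enzymes, 3 rose and 5 fell in Maf-KO and 5 rose and 4 fell in WT. Fut7, which makes selectin ligands, had -4.66 in Maf-KO and -6.15 in WT (edgeR adjusted p = 0.000177 and 0.000115). Cd6 had 1.22 in Maf-KO and 0.76 in WT (edgeR adjusted p = 0.000202 and 0.00313).

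Of 12 homing receptors and regulators beside the integrins, 4 rose and 4 fell in Maf-KO and 5 rose and 5 fell in WT. Ccr9, which guides T cells to small intestine, had log2 fold changes of 5.69 in Maf-KO and 5.96 in WT (edgeR adjusted p = 3.04e-06 and 2e-06). Cxcr6, a chemokine receptor of tissue-resident T cells, had 3.46 and 4.40 (edgeR adjusted p = 6.14e-06 and 1.51e-06). S1pr1, the exit receptor of T cells, had -2.32 and -2.77, and S1pr4 -1.82 and -1.77. The chains not among the members, Itga2b, Itga8, Itga10, Itga11 and Itgb6, were too low to be tested except Itga2b, which had -2.99 in Maf-KO (edgeR adjusted p = 0.0316) and -4.85 in WT (edgeR adjusted p = 0.00508). The Maf-KO call for Itga2b was lost in 7 of 21 alternatives, among them without Maf-KO gut replicate 3 (edgeR adjusted p = 0.197).

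The 35 genes lie on 16 chromosomes, and several neighbour each other. Itgal, Itgam, Itgax and Itgad lie on chromosome 7, Itga2 and Itga1 are 26.0 kb apart on chromosome 13, and Icam2 and Pecam1 266.1 kb apart on chromosome 11 (GRCm38). Some counts could include reads of other genes. In the GENCODE annotation 68.67% of the exon bases of Itgam also belong to Gm49368 on the same strand. On the opposite strand Ap3m1 overlaps 25.52% of those of Vcl and Cerkl 8.04% of those of Itga4, and whether the counting used strand is not given in the sources used here. Itgad shares 22.0% of its 50-base stretches with other genes, mostly Itgax, Itga4 10.9% (Cerkl), Itgax 9.61% (Itgad) and Rap1a 9.46% (Gm9392). Itgam shares 72.4% (mostly Gm49368), Vcl 39.2% (mostly Ap3m1), Itgb5 8.17% (mostly Gm38317), Itga6 6.5% (mostly Gm29397) and Itga1 5.5% (mostly Gm49395). Gm49395 also holds 3.68% of the exon bases of Itga1 on the same strand. The values of all these members are uncertain to that extent. The remaining members share at most 4.89% of such stretches.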

How the data were processed

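RNA-seq of sorted Tregs was analysed in 10 libraries, grouped by genotype and tissue as the labels give them. The authors deposited counts of reads per gene, made with featureCounts of Subread on GRCm38 (mm10) per the submitters' processing notes, and log2 FPKM values, for which those notes name limma. Neither the versions nor the annotation release nor the strand setting is given in the sources used here. All 27179 entries of the counts were used, and 852 of them have no symbol.

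edgeR 4.0.16 (R 4.3.3) filtered genes (filterByExpr, minimum count 10, minimum total 15), scaled with TMM and fitted 1 coefficient per group to all 10 libraries. Contrasts were tested with its quasi-likelihood test and Benjamini-Hochberg adjustment over 13214 genes, at a threshold of 0.05. The common dispersion was 0.0431. A count of 3 in a library, the limit used for a count of 0, is 0.231 to 0.377 CPM and covers counting error only. FPKM is 2 to the power of the deposited log2 value, and these lists hold 12252 genes, with Itgb4 not among them. The code was tested on simulated counts.

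No libraries were identical, and replicates differed by more than sampling noise (chi-square per degree of freedom 14.2 to 34.2). Numbers in the sample titles are shared by 4 gut and spleen pairs, and the deviations from group means correlated within each pair (0.382, 0.360, 0.313 and 0.255). The main tests did not use this pairing. It entered only the alternatives with title number as a block, where the consensus correlation of the random effect was 0.5085. Alternatives were DESeq2 size factors, library totals without TMM, no low count filter, DESeq2 1.42.0, limma-voom and limma-trend (limma 3.58.1, the last on log2 FPKM with and without low values raised to 0), groups fitted alone, replicate blocks, and leaving out each library.

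The members and lists were chosen with earlier results of these data known. Named were Maf and Foxp3, all 35 members, and from each pathway list up to 4 called genes per comparison by adjusted p. One gene that this rule names is not reported here. Promoters are RefSeq's (GRCm38.p6), and exon overlaps were read from the GENCODE annotation of the same build.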

Additional observations from a re-analysis of the deposited data

How the results depend on the processing

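No member passed between genotypes, or in the interaction, in any of 20 alternatives, and 11 of 17 calls between tissues in WT and 7 of 17 in Maf-KO held in all 21. No called member changed sign. Members called between tissues numbered 10 to 17 in Maf-KO when 1 library was left out (10 with gut replicate 3 of Maf-KO left out and 11 with gut replicate 2 left out, against 17), and 12 to 17 in WT (against 17).

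The counts over all genes moved more, and the cause was not tested. In gut, 20 genes passed between genotypes, and 74 passed without the low count filter, 112 with DESeq2, 33 with limma-voom, 59 on log2 FPKM with low values raised to 0, 12 with the groups fitted alone, and 4 to 22 when 1 library was left out. In spleen 2 genes passed, and 12 without the filter, 19 with DESeq2, 0 with limma-voom, 5 on log2 FPKM, 1 with the groups alone, and 2 to 9 when 1 library was left out. Between tissues, 3772 genes passed in Maf-KO (2118 to 3784 when 1 library was left out, the lowest with gut replicate 3 left out, and 2393 with gut replicate 2 left out) and 3703 in WT (2183 to 3597, the lowest without WT gut replicate 1). The interaction gave 0 genes, 8 with DESeq2 and 26 on log2 FPKM with low values raised to 0. Library totals without TMM lowered the share of higher genes among those called to 25.1% in Maf-KO, against 50.5%, and to 25.2% in WT, against 52.4%.

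With title number as a random replicate block, limma-voom called 42 genes between genotypes in gut, 0 in spleen and 5777 between tissues in Maf-KO. The block on title number gave 22 and 21 members in Maf-KO and 19 and 20 in WT as a random and a fixed effect, and changed no member's call beside those given in the report. Libraries of the 2 genotypes share only a label number (deviations correlated by -0.0394, -0.183 and -0.347 in spleen and -0.106 in gut), and a block on it gave 9 genes between genotypes in gut. A fixed title block could not be fitted for the genotype contrasts, nor the groups alone for the interaction. With 2 gut libraries a genotype, effects of any size within the 95% intervals given remain compatible with the data. Genes near the limit of 3 reads carry little information.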
